A study of Mus musculus with 4 samples.

Results

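The IGF ligands, receptors and binding proteins were followed through every probe set that the platform annotation assigns to Igf1, Igf2, Igf1r, Igf2r, Igfbp2, Igfbp3, Igfbp4, Igfbp5, Igfbp6 and Igfbp7. These 10 genes had 23 probe sets among the 22626 on the array that are not controls. A probe set is a group of short oligonucleotides that together read 1 transcript or a part of it, and each one is shown on its own below.

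RNA came from CH10T1/2, a mouse mesenchymal line of fibroblast type with the capacity to form cartilage, and was hybridised to 4 Affymetrix Mouse Genome 430A 2.0 arrays, 1 per group. The R150C line carries, by stable transfection, the variant of the PTH and PTHrP receptor PTHR1 found in enchondromas, which are benign cartilage tumours, and the WT line carries the wild-type receptor. All cells spent a night without serum. The R150C PTHrP and WT PTHrP groups then received 1e-07 M PTHrP for 1 h and the R150C carrier group received carrier. The WT control record calls its cells controls and names no agent, while the series text gives carrier. The labels do not say whether a line is 1 clone or which species the receptor cDNA is from. Each receptor is represented by 1 line, so receptor and line cannot be told apart.

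IGF1 and IGF2 are secreted growth factors that signal through the tyrosine kinase receptor encoded by Igf1r. The protein of Igf2r, which is also the cation-independent mannose 6-phosphate receptor, takes up IGF2 and sends it to lysosomes without a growth signal. The IGF binding proteins hold the ligands in the extracellular space, where they can block them or bring them to the receptor, and several of them are made by chondrocytes and fibroblasts. The series title names IGFBP-3 as controlled by Gli, the transcription factors of the hedgehog pathway, in tumours of cartilage.

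Of the 11 family probe sets bright enough to test, from 6 genes, limma called 0 between the R150C and WT lines and 0 after PTHrP at an adjusted p under 0.05. Over all tested probe sets 5.4% were called higher and 4.54% lower in the R150C line, and 0.124% higher and 0.831% lower after PTHrP, so 0 of 11 is close to what the array as a whole gave. The other 12 read low on these arrays and were not tested. Igfbp7, Igf2r, Igf1r and Igfbp4 had at least 1 probe set clear of the level of genes restricted to other tissues on all 4 arrays, and none of the tested ones was 2-fold apart in any pair of groups compared. Igfbp3, the gene in the title, read near the floor of every array and lowest in the R150C carrier array.

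The values are fluorescence intensities on a linear scale, called signal below, and their 2% trimmed mean was 150.1 on each array. Signals of different probe sets depend on their own oligonucleotides, so no probe set is ranked against another. The array floor was read from 59 probe sets of 34 genes restricted to other tissues, such as liver, pancreas, eye, testis, blood, heart, thyroid, kidney, brain and pituitary. The 95th percentile of their signal was 47.8 in the R150C PTHrP array, 54.1 in the R150C carrier array, 43.5 in the WT PTHrP array and 48.9 in the WT control array. For the fibroblast label, 29 of 30 probe sets of 14 mesenchymal genes passed the filter used here, with a median signal of 1053.6 to 1332.6. Of 14 cartilage marker probe sets 3 passed, and the Col2a1 probe set read 1105.9 to 1481.0. One Sox9 probe set was above the 95th percentile of the floor on all 4 arrays, and the Acan probe set read 19.5 to 41.7. Macrophage, endothelial and epithelial markers had medians of 8.0 to 24.0 over the 4 arrays, and the Ptprc and Epcam probe sets read 16.3 or less. Of their probe sets, 3 of 13, 1 of 14 and 2 of 14 passed the filter. Their highest signals, 125.2, 76.1 and 83.9 in the R150C carrier array, were above the floor percentile. The transfected receptor was not visible at the Pth1r probe set, which read 3.2 to 3.9 on all arrays and need not detect the transfected cDNA.

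**Figure D1:**
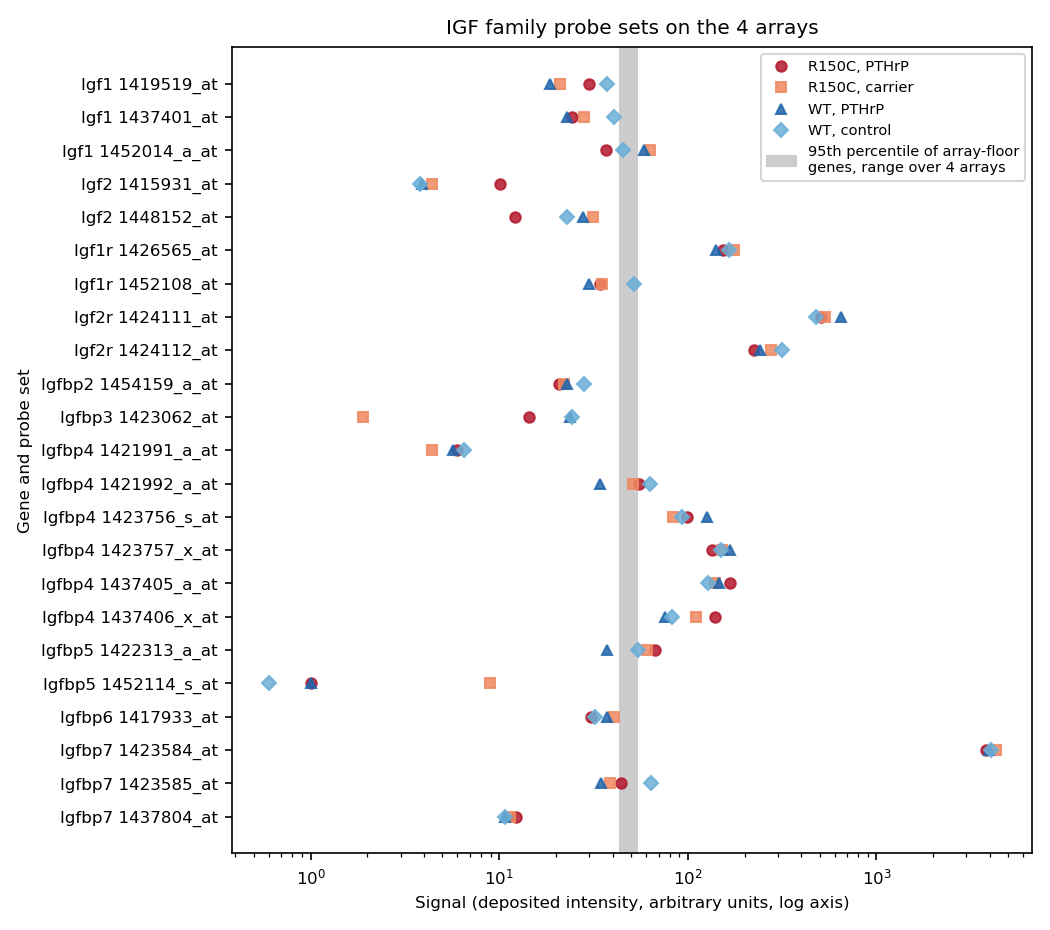
Signal of the 23 IGF family probe sets (deposited intensity, arbitrary units, log axis), with 1 symbol per array. The grey band is the 95th percentile of the array-floor genes, 43.5 to 54.1 over the 4 arrays; 8 probe sets, of Igf1r, Igf2r, Igfbp4 and Igfbp7, lie above the percentile of their own array on all 4.

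Of the 23 probe sets, 8 exceeded the 95th percentile of the floor on all 4 arrays, 5 on some arrays and 10 on none. Differences are given as log2(signal + 16), centred on each array as described under processing, and this scale understates the change of dim probe sets. The 11313 probe sets with a mean at or above the median, which lies at a signal of 46.9, were kept for testing. They included 11 member probe sets of 6 genes, and Igf2, Igfbp2, Igfbp3 and Igfbp6 had none.

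Among the ligands, Igf1 had 3 probe sets. Igf1 1452014_a_at read 36.8 in the R150C PTHrP array and 63.3 in the R150C carrier array, against 58.4 in the WT PTHrP array and 45.6 in the WT control array. The lines overlapped, with both the lowest and the highest value in the R150C line, and the line difference was -0.08 (95% interval -0.48 to 0.33; limma, adjusted p 0.875). Igf1 1419519_at and 1437401_at lay between 18.7 and 40.4, below the 95th percentile of the floor on each array.

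Igf2 also stayed within the floor range. Its 1448152_at probe set read 12.2 (PTHrP) and 31.4 (carrier) in the R150C line, against 27.9 (PTHrP) and 22.9 (control) in the WT line. Its 1415931_at probe set read 10.1 and 4.4 in the R150C line, against 3.9 and 3.8 in the WT line, in the same order. The R150C PTHrP array was thus lowest by the one and highest by the other, and neither was tested.

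Of the receptors, Igf1r was read well above the floor by 1426565_at, with signals of 154.2 and 175.5 in the R150C line (PTHrP, carrier) and 141.7 and 165.7 in the WT line (PTHrP, control). The R150C value was the higher one in each medium, by 0.08 under PTHrP and 0.09 in control medium, and the difference over both media was 0.08 (95% interval -0.29 to 0.45; limma, adjusted p 0.841). The other Igf1r probe set, 1452108_at, read 34.2 and 35.1 in the R150C line against 30.0 and 51.9 in the WT line, and passed the 95th percentile of the floor in the WT control array alone.

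Igf2r was clear of the floor by both of its probe sets. Igf2r 1424111_at read 505.5 and 535.3 in the R150C line and 646.7 and 477.4 in the WT line (PTHrP first). Igf2r 1424112_at read 225.1 and 276.2 in the R150C line and 240.4 and 315.9 in the WT line. The first probe set was highest in the WT PTHrP array and lowest in the WT control array, while the second was highest in the WT control array, so they did not agree on the direction of PTHrP in the WT line (0.48 and -0.32). Between the lines, Igf2r differed by -0.10 (95% interval -0.49 to 0.28) and -0.15 (-0.52 to 0.22), with adjusted p of 0.806 and 0.697 by limma.

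Among the binding proteins, Igfbp7, whose product is a secreted relative that binds IGFs weakly, was far above the floor by 1423584_at. It read 3822.3 and 4284.4 in the R150C line (PTHrP, carrier) and 3953.0 and 4061.2 in the WT line (PTHrP, control). The WT values lay inside the R150C range, and the line difference was 0.005 (95% interval -0.37 to 0.38; limma, adjusted p 0.992). The other Igfbp7 probe sets did not share this level: 1437804_at read 10.8 to 12.3, and 1423585_at read 44.1 and 38.7 in the R150C line against 34.5 and 63.6 in the WT line. Whether they target a part of the transcript that is absent in these cells was not tested.

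Igfbp4, a binding protein known to restrain IGF action until the protease of Pappa cleaves it, had 6 probe sets. Igfbp4 1437406_x_at came closest to a line difference, with 139.4 and 110.5 in the R150C line (PTHrP, carrier) against 75.5 and 82.3 in the WT line (PTHrP, control). Both R150C arrays were above both WT arrays, by 0.73 under PTHrP and 0.375 in control medium. The difference over both media was 0.55 (SE 0.18, 95% interval 0.18 to 0.93), with an unadjusted p of 0.00513 and an adjusted p of 0.0512 by limma, so it did not pass. The suffix x marks probe sets with oligonucleotides that may also bind other transcripts.

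The other Igfbp4 probe sets did not repeat that difference. Igfbp4 1437405_a_at read 167.8 and 139.2 in the R150C line and 145.7 and 127.3 in the WT line, with a line difference of 0.14 (95% interval -0.23 to 0.51). Igfbp4 1423756_s_at read 98.5 and 83.8 against 125.8 and 93.3, and 1423757_x_at read 134.8 and 151.5 against 166.9 and 150.4, R150C first and PTHrP first within each line. Their line differences were -0.23 (95% interval -0.60 to 0.14) and -0.14 (-0.52 to 0.23). Igfbp4 1421992_a_at lay at the edge of the floor, at 55.4 and 51.1 in the R150C line and 34.3 and 62.8 in the WT line, and 1421991_a_at at 4.4 to 6.5 did not pass the filter. Over the 5 tested probe sets the sign of the line difference was therefore mixed, and the adjusted p of the other 4 lay between 0.504 and 0.758 by limma.

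Igfbp5, whose protein is abundant in bone matrix, read 67.0 and 60.6 in the R150C line (PTHrP, carrier) and 37.5 and 54.4 in the WT line (PTHrP, control) by 1422313_a_at. Both R150C values were above both WT values, and the difference was 0.37 (SE 0.19, 95% interval -0.01 to 0.75; limma, adjusted p 0.244). The signals straddled the 95th percentile of the floor, with the WT PTHrP array below it. The second probe set, 1452114_s_at, read 1.0 and 8.9 in the R150C line against 1.0 and 0.6 in the WT line.

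Igfbp6, whose protein prefers IGF2, read 30.8 and 40.8 in the R150C line and 37.1 and 32.2 in the WT line. Igfbp2 read 20.8 and 22.0 in the R150C line and 22.9 and 28.3 in the WT line. Each had 1 probe set, below the 95th percentile of the floor on all arrays, and neither was tested.

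Igfbp3, which encodes the main carrier of IGFs in blood, had a single probe set, 1423062_at. It read 14.4 in the R150C PTHrP array and 1.9 in the R150C carrier array, against 23.6 in the WT PTHrP array and 24.2 in the WT control array. Both R150C values were below both WT values. Of the 59 floor probe sets, 64.4% and 13.6% read lower than Igfbp3 in the R150C line and 74.6% and 71.2% in the WT line, in the same order, so all 4 values lay among the signals of genes restricted to other tissues.

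On the log2(signal + 16) scale Igfbp3 differed between the lines by -1.16 in control medium and -0.41 under PTHrP. The size depended on the constant added: with 1 in place of 16 the differences were -3.11 and -0.71, and with 64 they were -0.41 and -0.18. Without the filter the line difference of Igfbp3 was -0.74 (SE 0.23), with an unadjusted p of 0.00436 and an adjusted p of 0.0996 by limma. In control medium, with the constant at 16, Igfbp3 was the 1 member probe set of 23 past 2-fold. With 1 in its place Igfbp5 1452114_s_at was past it too, in the other direction (2.64), and with 64 no member was. At 16, 2.37% of all probe sets below the filter were 2-fold lower and 1.12% 2-fold higher in the R150C line.

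**Figure D2:**
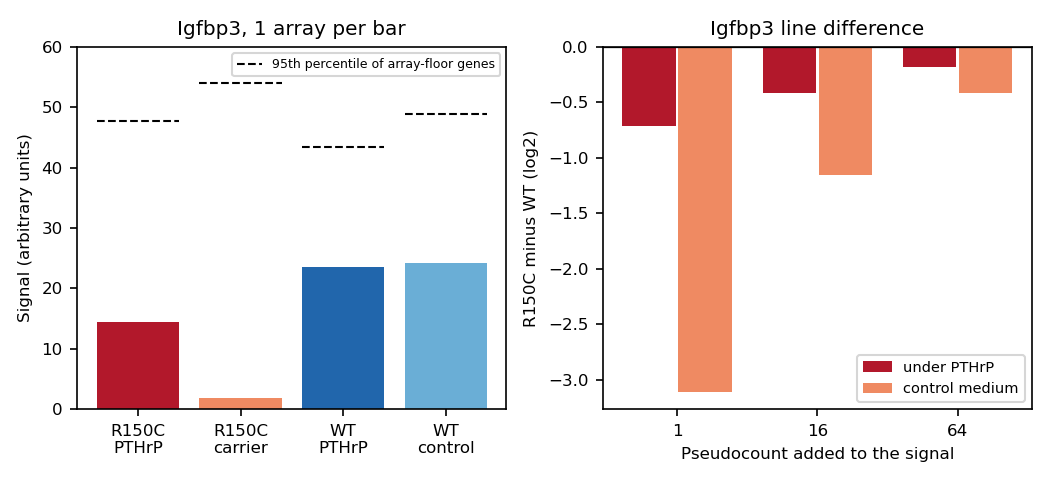
Igfbp3 probe set 1423062_at: at left its signal on each array (arbitrary units, axis from 0) with that array's 95th percentile of floor genes as a dashed line; at right the R150C minus WT difference on the log2 scale in each medium for pseudocounts of 1, 16 and 64. All 4 signals lie below the dashed lines, and the difference in control medium ran from -3.11 to -0.41 with the constant added.

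The promoters of the genes above were read from the RefSeq table (build GRCm38.p6), which matched 10 of 10 genes with 14 annotated starts. Igfbp3 was picked because the title ties it to Gli, and Igfbp5 because its window carries 2 adjoining CCACCC hexamers. Igfbp7, Igf2r and Igfbp4 were picked from the genes clear of the floor, of which Igf1r is not shown. The 250 bases before the start of each picked gene are printed. They lie at chr11:7213924-7214173 (minus strand), chr1:72874866-72875115 (minus strand), chr5:77408046-77408295 (minus strand), chr17:12769707-12769956 (minus strand) and chr11:99040994-99041243 (plus strand), each written along the gene's strand. Capitals mark every match, on both strands, of the hexamer CCACCC, of the TATA motifs TATAAA or else TATATA, and of the GC box GGGCGG.
Igfbp3: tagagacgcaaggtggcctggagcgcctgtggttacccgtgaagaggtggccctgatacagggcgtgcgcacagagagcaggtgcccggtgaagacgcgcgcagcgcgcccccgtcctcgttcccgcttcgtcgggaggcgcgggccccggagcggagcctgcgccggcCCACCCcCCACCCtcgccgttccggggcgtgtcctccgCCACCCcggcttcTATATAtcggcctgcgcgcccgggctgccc
Igfbp5: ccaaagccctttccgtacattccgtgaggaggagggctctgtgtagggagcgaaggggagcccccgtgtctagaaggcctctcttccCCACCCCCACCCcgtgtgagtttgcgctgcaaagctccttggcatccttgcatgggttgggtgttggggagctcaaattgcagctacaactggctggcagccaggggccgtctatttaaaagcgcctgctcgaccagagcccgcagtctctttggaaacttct
Igfbp7: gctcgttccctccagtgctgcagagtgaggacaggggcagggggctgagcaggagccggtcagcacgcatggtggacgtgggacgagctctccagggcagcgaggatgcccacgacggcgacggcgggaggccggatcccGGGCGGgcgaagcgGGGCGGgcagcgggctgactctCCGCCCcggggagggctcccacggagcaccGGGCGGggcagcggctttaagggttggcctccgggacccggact
Igf2r: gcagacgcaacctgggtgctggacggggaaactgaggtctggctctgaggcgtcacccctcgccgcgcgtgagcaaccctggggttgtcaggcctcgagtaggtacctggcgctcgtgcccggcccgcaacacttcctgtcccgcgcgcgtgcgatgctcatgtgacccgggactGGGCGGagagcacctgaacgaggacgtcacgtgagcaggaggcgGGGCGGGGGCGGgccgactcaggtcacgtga
Igfbp4: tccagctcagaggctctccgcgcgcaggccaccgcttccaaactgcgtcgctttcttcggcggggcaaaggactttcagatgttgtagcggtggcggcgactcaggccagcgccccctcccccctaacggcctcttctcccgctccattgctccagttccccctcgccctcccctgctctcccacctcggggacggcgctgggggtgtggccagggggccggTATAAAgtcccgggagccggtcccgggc

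The Gli consensus GACCACCCA was in none of the 14 member windows on either strand, and in 0.225% of the 32851 windows of the table. CCACCC, a shorter run contained in that consensus, was found 3 times before Igfbp3, starting at -81, -74 and -43, and 2 times before Igfbp5, at -163 and -157, where the copies adjoin. Igf2, Igfbp2 and Igfbp6 also had a window with 2 copies. At least 1 copy occurred in 7 of 14 member windows and 28.1% of all windows, and at least 3 copies in 1.78% of all. Igfbp3 also had TATATA at -30 and Igfbp4 TATAAA at -28, motifs present in 5.25% and 12.4% of all windows. The GC box occurred 4 times before Igfbp7, 3 times before Igf2r and 3 times in a window of Igfbp2, a gene near the floor. Over all windows, 8.47% held at least 3 copies and 32.7% at least 1. The printed windows held 32 CpG before Igfbp3, 10 before Igfbp5, 26 before Igfbp7, 27 before Igf2r and 22 before Igfbp4, against a median of 6 over all windows. In the same order 73.2%, 58.8%, 74.0%, 69.2% and 69.2% of their bases were G or C, against a median of 52.4%. The motif shares over all windows were not matched for base content.

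Setting the R150C line against the WT line addresses which transcripts differ between cells given the variant and the normal receptor. limma's additive fit over both media called 0 of the 11 member probe sets higher and 0 lower in the R150C line, while 5.4% of all kept probe sets were called higher and 4.54% lower. At an unadjusted p under 0.05 by limma there was 1 of the 11 member probe sets, that of Igfbp4 named above. At that threshold 1187 of the 11313 kept probe sets were higher and 1293 lower in the R150C line. The member differences ran from -0.23 to 0.55 with a median of 0.005, against a median of -0.05 over all kept probe sets. All 11 intervals lay between -0.60 and 0.93, inside a 2-fold change in either direction. With 1 array per group, the error comes only from how far line and medium fail to add up, 1 degree of freedom per probe set that limma pools over the array. The p-values therefore carry no spread between cultures.

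**Figure D3:**
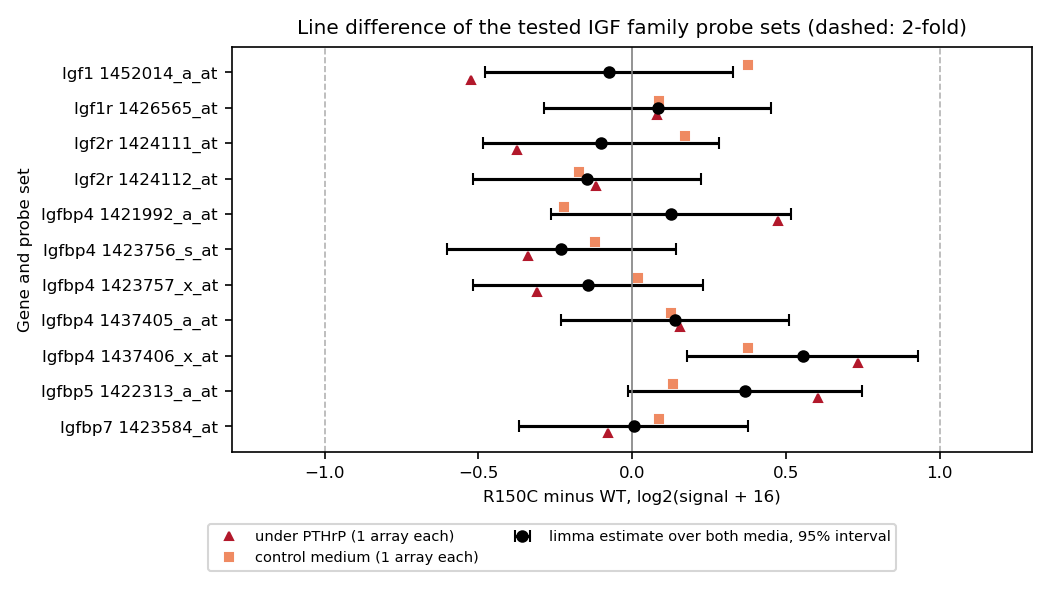
R150C minus WT difference, log2(signal + 16), of the 11 tested IGF family probe sets: black points are limma estimates over both media with 95% intervals, triangles and squares the single differences under PTHrP and in control medium, dashed lines 2-fold. In this fit no interval reaches 2-fold, and that of Igfbp4 1437406_x_at (0.18 to 0.93) is the 1 that does not include 0.

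No kept member probe set was 2-fold apart in either medium. In control medium the 11 differences ran from -0.22 to 0.375, where 2.06% of kept probe sets were 2-fold higher and 1.45% 2-fold lower in the R150C line, and under PTHrP from -0.53 to 0.73, where the shares were 2.11% and 0.831%. Only Igf1r, the second Igf2r probe set, Igfbp5 and the Igfbp4 probe sets 1423756_s_at, 1437405_a_at and 1437406_x_at kept 1 sign in both media among those tested. The 3 genes whose kept probe sets lay nearest to Igfbp4 1437406_x_at over the 4 arrays were Zfp281, Lamb1 and Naa30, at Euclidean distances of 0.0216, 0.0228 and 0.0263 on the log2 scale after each probe set's mean was removed. Of the 11313 kept probe sets, 15 lay within 0.1, and how often other probe sets have matches as near over 4 arrays was not tested.

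The PTHrP comparison asked what 1 h of ligand does to the family. limma's term is 1 effect shared by both lines, and the differences within each line have no test. Opposite differences offset each other in that term: Igf1 1452014_a_at had -0.58 in the R150C line and 0.32 in the WT line, fitted at -0.13. limma called 0 of 11 member probe sets higher and 0 lower over both lines, where 0.124% of kept probe sets were called higher and 0.831% lower. None of the 11 had an unadjusted p under 0.05 by limma, where 349 of the 11313 kept probe sets were higher and 676 lower. The differences over both lines ran from -0.29 for Igf2r 1424112_at to 0.32 for Igfbp4 1423756_s_at, with intervals between -0.66 and 0.69 and adjusted p from 0.691 to 0.988. In the R150C line alone they ran from -0.58 (Igf1) to 0.31 (Igfbp4 1437406_x_at), and in the WT line from -0.60 (Igfbp4 1421992_a_at) to 0.48 (Igf2r 1424111_at). None reached 2-fold, against 0.15% of kept probe sets higher and 0.15% lower in the R150C line, and 0.168% and 1.54% in the WT line. Below the filter, Igfbp3 differed by 0.78 after PTHrP in the R150C line and 0.03 in the WT line, and Igf2 1448152_at by -0.74 and 0.23.

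**Figure D4:**
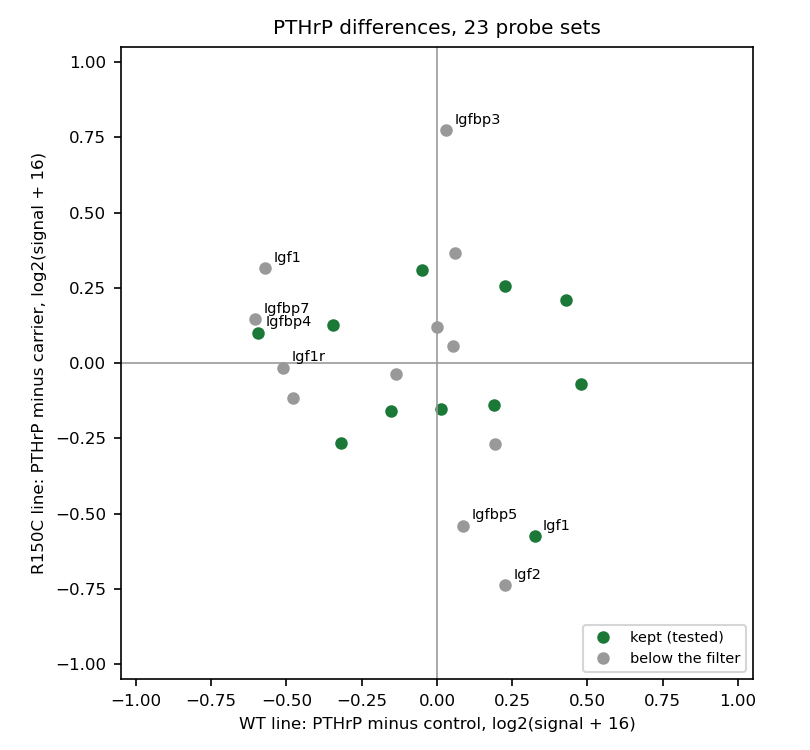
PTHrP minus carrier in the R150C line (vertical) against PTHrP minus control in the WT line (horizontal), log2(signal + 16), for the 23 IGF family probe sets, which rest on 1 array per group. With the constant at 16 all points lie inside 2-fold, which did not hold at 1. The probe sets past 0.5 in 1 line, such as those of Igfbp3 and Igf2, are not past 0.5 in the other.

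The WT control array held the highest value of 9 of the 23 member probe sets and of 7 of the 12 below the filter. Over all probe sets below the filter it was highest for 31.8%, and over the kept ones for 27.1%. The signals were compared before centring. Their median over probe sets that are not controls was 52.2 in the WT control array, against 44.7 to 48.1 in the other arrays. For Gapdh, the control transcript read at both ends, the signal at the 3' end divided by that at the 5' end came to 1.21 in the R150C PTHrP array, 0.991 in the R150C carrier array, 1.17 in the WT PTHrP array and 0.845 in the WT control array. The ratio was thus higher in both PTHrP arrays than in both arrays without PTHrP, and lowest in the WT control array. The part of RNA quality in the PTHrP differences and in the values of the WT control array was not tested.

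Downstream of the receptor, 33 probe sets of 21 genes of a list of 35 IGF and insulin signalling genes were kept. limma called 4 of the 33 higher and 4 lower in the R150C line, where 5.4% and 4.54% of all kept probe sets were called. The 8 calls came from 4 genes. All 3 tested probe sets of Foxo1, a transcription factor that AKT holds out of the nucleus when insulin or IGF1 signals, were higher in the R150C line. Foxo1 1416982_at read 197.2 and 219.4 in the R150C line (PTHrP, carrier) against 79.5 and 82.9 in the WT line (PTHrP, control), a difference of 1.20 (SE 0.18, adjusted p 1.58e-05). The other Foxo1 probe sets differed by 0.80 and 0.98.

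Foxo3, a relative under the same control, was lower in the R150C line. Foxo3 1434831_a_at read 97.7 and 103.5 in the R150C line against 237.4 and 235.4 in the WT line, a difference of -1.12 (SE 0.18, adjusted p 4.06e-05 by limma). Foxo3 1434832_at differed by -0.68 (adjusted p 0.0149), and the lines did not overlap in either. The Ras exchange factor gene Sos2 was called higher (limma, adjusted p 0.0235), at 78.0 and 81.0 in the R150C line against 42.6 and 48.8 in the WT line. Both WT values of Sos2 lay below the 95th percentile of the floor. Here and below, such a side is set to that percentile on each array and the difference given as a bound on the log2(signal + 16) scale, which for Sos2 came to at least 1.53-fold in favour of the R150C cells. The calls of Foxo3 1434832_at and Sos2 were lost under some alternative settings, with adjusted p of up to 0.156 and 0.119, while the calls of the 3 Foxo1 probe sets and of Foxo3 1434831_a_at held under each setting that tested them.

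Grb10, which encodes an adaptor that binds the IGF1 and insulin receptors and dampens their signal, gave unlike values by probe set. Grb10 1425457_a_at read 26.3 and 53.6 in the R150C line (PTHrP, carrier) and 36.6 and 315.9 in the WT line (PTHrP, control), so the WT control array alone stood apart. Grb10 1430164_a_at had the same outline, at 35.6 and 33.7 in the R150C line and 49.2 and 135.4 in the WT line. The third, 1425458_a_at, stayed at 2131.7 and 1986.3 in the R150C line and 2213.8 and 2412.2 in the WT line. limma called the first and the second lower in the R150C line (adjusted p 0.000409 and 0.00167). All their R150C values lay below the 95th percentile of the floor. Averaged over both media, the second was at least 1.5-fold lower. No bound is given for the first, whose WT PTHrP value lay below that percentile too. These calls rest on the WT control array: under PTHrP, without it, both lines were below that percentile for the first, and the second differed by -0.37 as fitted, against -1.60 in control medium. Both line calls were lost under some alternative settings, with adjusted p of up to 0.365 and 0.161.

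limma also called Grb10 1425457_a_at lower after PTHrP (adjusted p 0.000588). In the R150C line both of its values lay below the 95th percentile of the floor, so this call too rests on the WT control array. No bound over both lines is given for it. Shc1 1422853_at, of a gene for another adaptor, was called lower after PTHrP too (limma, adjusted p 0.00886). Averaged over both lines, its difference was at least 1.40-fold. It read 28.6 and 55.1 in the R150C line and 31.1 and 92.8 in the WT line. The R150C carrier value was barely above the floor percentile of its array, 54.1. The second Shc1 probe set, 1422854_at, read 341.2 and 363.2 in the R150C line and 309.2 and 334.1 in the WT line. For both called probe sets the PTHrP arrays lay below the 95th percentile of the floor, and the Gapdh ratio given above moved with PTHrP. Over the settings that tested them, Grb10 1425457_a_at was called after PTHrP in 5 of 9 and Shc1 1422853_at in 3 of 8. Without centring, after quantile normalization and with only the medium in the model, limma called 0 probe sets of the whole array for PTHrP, with 810, 821 and 253 at an unadjusted p under 0.05.

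**Figure D5:**
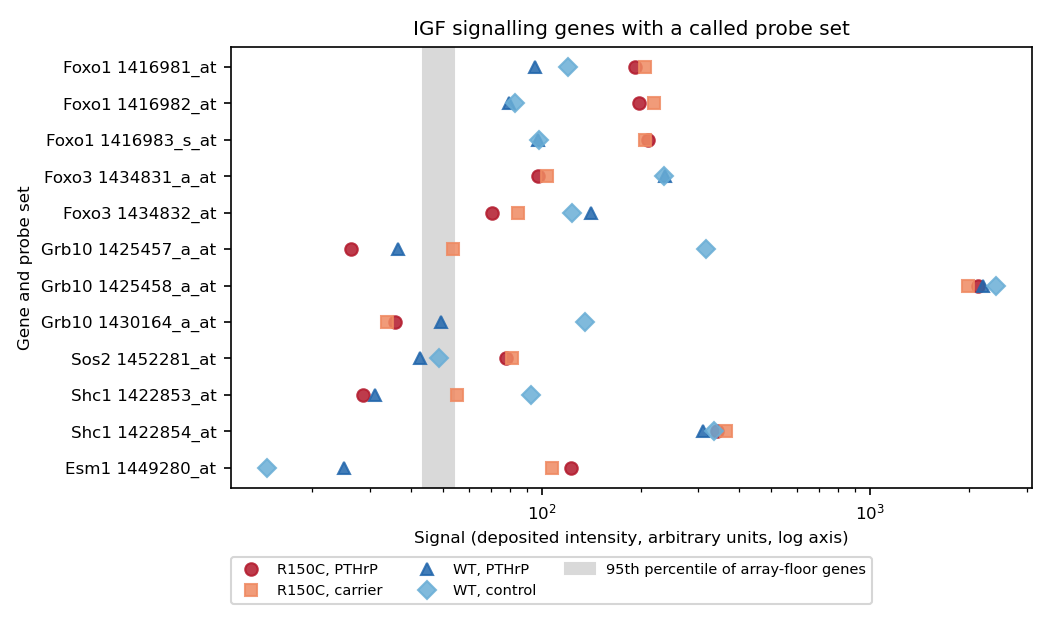
Signal (arbitrary units, log axis) of the kept probe sets of the IGF signalling genes with a called probe set, and of Esm1, with 1 symbol per array; the grey band is the 95th percentile of floor genes. Foxo1 and Foxo3 separate the lines in opposite directions, whereas 2 Grb10 probe sets stand apart in the WT control array only.

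Of 15 other genes that carry IGFs, cleave their binding proteins, bind Igf2 mRNA or share a domain with the family, 5 had a kept probe set, and limma called 1 of these 5 probe sets higher and 0 lower in the R150C line, beside 5.4% and 4.54% over all kept probe sets. The called gene was Esm1, which encodes a secreted proteoglycan with an IGF binding protein domain. Esm1 read 123.0 and 107.3 in the R150C line (PTHrP, carrier) against 24.9 and 14.6 in the WT line (PTHrP, control), and both WT values lay below the 95th percentile of the floor. Esm1 in R150C cells exceeded WT at least 2.09-fold (limma, adjusted p 3.62e-09), and its fitted difference ran from 1.09 to 2.52 over the settings. Pappa read 52.0 and 44.6 in the R150C line against 55.6 and 69.2 in the WT line and was not called, and Igfbp1, absent from the list of members, read 2.4 to 10.6.

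Of 11 hedgehog pathway genes, 5 had 7 kept probe sets, and limma called 3 of these lower and 0 higher in the R150C line, beside 4.54% and 5.4% over all kept probe sets. Of these calls 2 were of Gas1, a surface protein that binds hedgehog ligands, which differed by -3.81 and -2.86. Ptch1, which Gli proteins switch on directly, had signals of 36.7 and 28.0 in the R150C line (PTHrP, carrier) against 110.4 and 112.1 in the WT line (PTHrP, control) by 1428853_at. Both R150C values of Ptch1 lay below the 95th percentile of the floor, so it was at least 1.92-fold lower in the R150C line (limma, adjusted p 1.01e-06), and its fitted difference ran from -1.77 to -0.87 over the settings. Gli1, another Gli target, read 22.7 and 19.2 in the R150C line against 38.7 and 32.7 in the WT line, below the 95th percentile of the floor on all arrays.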

How the data were processed

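RNA from the 4 groups was labelled with biotin and hybridised to 1 array each, per the labels' protocols. The authors deposited an intensity per probe set on a linear scale, made in the Expression Console software, per the submitters' processing notes. Neither its version nor the way probes were summarised is stated there. Equal trimmed means show a global scaling. The table holds no detection calls. Precision is limited by the number of arrays.

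The 10 genes are among 12393 with a probe set of 1 symbol. Of 22690 probe sets, 64 controls were left out. Of the rest, 20380 had 1 gene symbol, 691 several and 1555 none, and 20351 of those with 1 symbol had an Entrez identifier in the RefSeq gene table (GRCm38.p6), used for names only. Promoter windows came from a separate RefSeq table of the same build. Signals were converted to log2(signal + 16). Probe sets with a mean at or above the median over probe sets were kept, and each array was centred on the median of those kept. Line and medium were fitted as additive terms with limma (version 3.58.1, R 4.3.3) over all 11313 kept probe sets, with Benjamini-Hochberg adjustment at 0.05, and the fit was tested on simulated data. Single contrasts have 1 array per group and no test. All member probe sets are named; other genes come from pathway lists, where genes called by line (at most 6 a list by size) plus Ptch1 and Gli1 were to be named, and other probe sets of the same genes, Shc1, Pappa and Igfbp1 were added after their values were seen.

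The members and lists were chosen with earlier results of these data known. Alternatives were other scalings, pseudocounts, filters, an intensity trend in eBayes and a model with only the term tested.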

Additional observations from a re-analysis of the deposited data

How the results depend on the processing

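No member probe set was called by limma under any of the 9 alternative settings, by line (lowest adjusted p 0.0504, for Igfbp4 1437406_x_at) or by PTHrP (lowest 0.618). With the filter at the 75th percentile 3 member probe sets were tested, and Igfbp4 1437406_x_at was not among them. Line calls over the whole array ran from 410 to 1318 under these settings. Where the whole array had 0 calls for PTHrP, as listed below, no member could be called. The line difference of Igfbp4 1437406_x_at ran from 0.39 to 0.64, with adjusted p from 0.0504 to 0.178, and that of Igfbp5 1422313_a_at from 0.21 to 0.48. Of 91 values of member line differences under the alternatives, 1 reversed: Igfbp7 1423584_at stood at -0.02 with the filter at the 75th percentile. Without the filter 1 member probe set, that of Igfbp3, was past 2-fold between the lines in control medium, against 0 with it.

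Over the whole array, 1125 probe sets were called between the lines, against 455 without centring, 587 after quantile normalization, 641 without the filter, 410 with only the line in the model and 575 with the filter at the 75th percentile. The share of calls that were higher in the R150C line was 54.3%, but 69.9% without centring, 66.6% after quantile normalization and 62.8% when centred on all probe sets. For PTHrP 108 probe sets were called, against 0 without centring, after quantile normalization or with only the medium in the model (810, 821 and 253 at an unadjusted p under 0.05), 61 and 51 with pseudocounts of 1 and 64, 7 without the filter, 193 with an intensity trend and 13 with the stricter filter. Why these counts moved was not tested. Signals near the floor limit what can be read for Igf2, Igfbp2, Igfbp3 and Igfbp6. Leaving out 1 array leaves no residual degrees of freedom, so no such test was run, and the single differences in the report are the values without the other arrays. No paired analysis was possible because the labels carry no replicate numbers and each group has 1 array.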
